A study of Mus musculus with 2 samples.

Results

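A set of 40 genes of mitosis was followed in G1E-ER4 cells: the kinases that start and steer cell division, the checkpoint that delays it, the ubiquitin enzymes that end it, and proteins of the kinetochore, spindle and cleavage furrow. The list of 40 names was drawn up by function, with earlier results of these data known. Each name matched 1 row in each of the 2 gene tables, so 40 of 43346 gene rows, or of 21474 protein-coding genes, were described. G1E-ER4 is a mouse erythroid line that has no working Gata1 of its own and carries Gata1 joined to an estrogen receptor domain, which estradiol switches on. The only group was G1E-ER4 treated with 17beta-estradiol at 10 nM for 7 hours, and 2 libraries of polyA RNA were made from it, numbered as biological replicates 1 and 2. Every cell thus carried the fusion and received estradiol, and the group is a single line. No untreated sample or second time point was analysed here, so no effect of estradiol was measured. The labels name 1 biosample for the pair, and nothing says that separate cultures were used, so the spread between libraries may be technical.

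The libraries held 59610963 and 44689404 expected counts, which are the authors' estimates of fragments per gene. All 6 erythroid markers checked were above 1 in TPM, the abundance of a gene's transcripts scaled for their length and for the library total, with a median of 1125 and a lowest mean of 161. They differed between the libraries: their summed TPM was 20909.6 in replicate 1 and 12611 in replicate 2, while Klf1, an erythroid transcription factor, had 984 and 1394. Of 27 markers of other cell types, 7 reached that level and 10 had no count in either library. Their summed TPM was 202 in replicate 1 and 203 in replicate 2, and most of it came from Ptprcap (82.6 and 76.1) and Gp1ba (52.6 and 52.7). Among the myeloid markers Mpo had 0 counts in replicate 1 and 24 in replicate 2, and Elane 1 and 10. The part of these markers in the differences between the libraries was not tested.

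Entry into mitosis is driven by Cdk1 bound to a B-type cyclin, which Cdc25 phosphatases activate and Plk1 and the Aurora kinases assist. Chromosomes attach to spindle microtubules through kinetochores, and unattached kinetochores keep a checkpoint active that holds back Cdc20, an activator of the anaphase-promoting complex (APC/C). Once all are attached, the APC/C marks securin and the B-type cyclins for destruction, separase opens cohesin and the cell divides. Erythroid precursors go on dividing while they mature, and most of these genes are transcribed mainly in the G2 and M phases. In RNA from a whole culture, fewer cells in mitosis and less RNA per mitotic cell cannot be told apart.

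Most of the promoters searched held 2 short sequences. Genes transcribed in the G2 and M phases are known for a cell cycle homology region (CHR), bound by the DREAM and MuvB complexes, that lies near the start site, with CCAAT boxes bound by NF-Y upstream. RefSeq promoters (GRCm38.p6, from 250 bases before to 50 after the start) were found for 34 of the 40 genes, the others being Aurkb, Cdc25c, Incenp, Kif20a, Spc24 and Tpx2. The CHR letters TTTGAA or TTCGAA, read on both strands, stood in a window of 27 of the 34 genes (79.4%), against 21.7% of all 27025 genes in the promoter table and 15.8% of 6591 protein-coding genes detected here. CCAAT on either strand stood in 27 of 34, against 41.1% of all genes and 44.1% of detected genes. Both stood together in 24 of 34 (70.6%), against 8.61% and 6.86%. Of the 30 member windows with CHR letters, 27 held them in the last 100 bases, a position that held in 27.6% of all windows with these letters. That position was looked at after the sequences had been seen. The E2F letters GCGGGAA and TTGGCGC stood in 0 and 4 of the 34 genes, Ccnb1, Cdk1, Ect2 and Mki67 having the second, against 5.29% and 2.85% of all genes and 10.9% and 5.64% of detected genes.

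Printed here are the windows of the 6 most abundant matched genes with both CHR letters and CCAAT, shown so that the arrangement can be read. They are those of Cenpa (chr5:30666636-30666935, plus strand), Cdc20 (chr4:118437294-118437593, minus), Ube2c (chr2:164769679-164769978, plus), Cdca8 (chr4:124936868-124937167, minus), Plk1 (chr7:122159185-122159484, plus) and Bub3 (chr7:131560120-131560419, plus). Capitals mark the CHR letters and the CCAAT letters in either orientation, and each window reads 5′ to 3′ on the strand of its gene.
Cenpa: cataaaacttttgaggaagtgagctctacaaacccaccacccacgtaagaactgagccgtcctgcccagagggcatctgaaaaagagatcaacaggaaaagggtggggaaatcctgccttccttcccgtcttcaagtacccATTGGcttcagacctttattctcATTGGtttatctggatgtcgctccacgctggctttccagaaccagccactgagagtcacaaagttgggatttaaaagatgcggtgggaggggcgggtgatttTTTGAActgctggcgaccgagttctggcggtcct
Cdc20: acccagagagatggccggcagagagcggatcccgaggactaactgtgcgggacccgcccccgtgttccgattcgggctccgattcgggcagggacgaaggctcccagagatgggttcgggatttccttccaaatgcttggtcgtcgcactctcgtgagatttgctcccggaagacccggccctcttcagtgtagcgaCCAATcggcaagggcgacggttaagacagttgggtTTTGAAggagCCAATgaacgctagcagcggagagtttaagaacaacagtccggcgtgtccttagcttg
Ube2c: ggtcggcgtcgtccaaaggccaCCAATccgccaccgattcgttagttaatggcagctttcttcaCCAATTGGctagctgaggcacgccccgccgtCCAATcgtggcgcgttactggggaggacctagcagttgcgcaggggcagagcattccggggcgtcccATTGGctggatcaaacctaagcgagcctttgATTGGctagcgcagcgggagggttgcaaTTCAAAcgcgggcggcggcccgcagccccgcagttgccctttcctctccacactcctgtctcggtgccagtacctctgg
Cdca8: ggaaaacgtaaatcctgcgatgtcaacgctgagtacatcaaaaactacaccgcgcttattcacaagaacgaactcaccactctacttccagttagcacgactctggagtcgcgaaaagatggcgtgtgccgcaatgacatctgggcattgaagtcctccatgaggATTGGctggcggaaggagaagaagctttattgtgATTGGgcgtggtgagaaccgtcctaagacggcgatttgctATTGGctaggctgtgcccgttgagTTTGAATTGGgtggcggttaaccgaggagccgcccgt
Plk1: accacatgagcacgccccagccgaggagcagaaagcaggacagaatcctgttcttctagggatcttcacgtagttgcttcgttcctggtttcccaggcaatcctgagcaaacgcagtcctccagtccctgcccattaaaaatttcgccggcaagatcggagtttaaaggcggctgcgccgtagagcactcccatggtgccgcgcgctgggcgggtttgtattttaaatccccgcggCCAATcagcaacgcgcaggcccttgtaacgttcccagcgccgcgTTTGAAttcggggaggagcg
Bub3: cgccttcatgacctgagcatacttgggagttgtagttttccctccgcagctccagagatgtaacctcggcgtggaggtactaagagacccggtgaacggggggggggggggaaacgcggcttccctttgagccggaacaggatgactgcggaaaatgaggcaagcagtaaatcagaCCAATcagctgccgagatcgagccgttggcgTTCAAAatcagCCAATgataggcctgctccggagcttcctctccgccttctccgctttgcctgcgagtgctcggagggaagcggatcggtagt
Counted from the start site, with the first transcribed base as 1, the CHR letters began at 17 in Cenpa, -18 in Cdc20, -29 in Ube2c, 14 in Cdca8, 31 in Plk1 and -43 in Bub3. CCAAT lay on both strands in Ube2c, and in Cdca8 it overlapped the CHR letters. The 24 genes with both had a median TPM of 24.3 and the other 10 matched genes one of 6.24, and the range of the 10 (1.28 to 101) lay inside that of the 24 (1.23 to 452). The median GC content of their coding transcripts also differed, at 48.7% in the 24 and 44.2% in the 10. A link between these letters and the levels was not tested. A match is a match of letters and no evidence of binding here.

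With detection set at a TPM of 1 or more in each library, 38 of the 40 genes were detected, where 38.3% of all protein-coding genes were. The exceptions were Nuf2 and Ndc80, each at 1.86 in replicate 1 and at 0.700 and 0.810 in replicate 2. The authors' interval for TPM in replicate 2 ran from 0.590 to 1.11 for Nuf2 and from 0.611 to 1.02 for Ndc80, so both reached past 1. Levels of the 40 genes spanned a mean TPM of 1.23 to 452, with a median of 19.6 beside 20.8 for the 8219 detected protein-coding genes. Above 100 stood 9, which made up 80.3% of the summed TPM, 17 lay from 10 to 100 and 14 below 10. Of the 40, 5 lay in the top 10% of detected protein-coding genes and 12 in the bottom 25%. The order was alike in the libraries, with a Spearman rho of 0.951 across the 40 genes, which are not independent replicates.

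**Figure D1:**
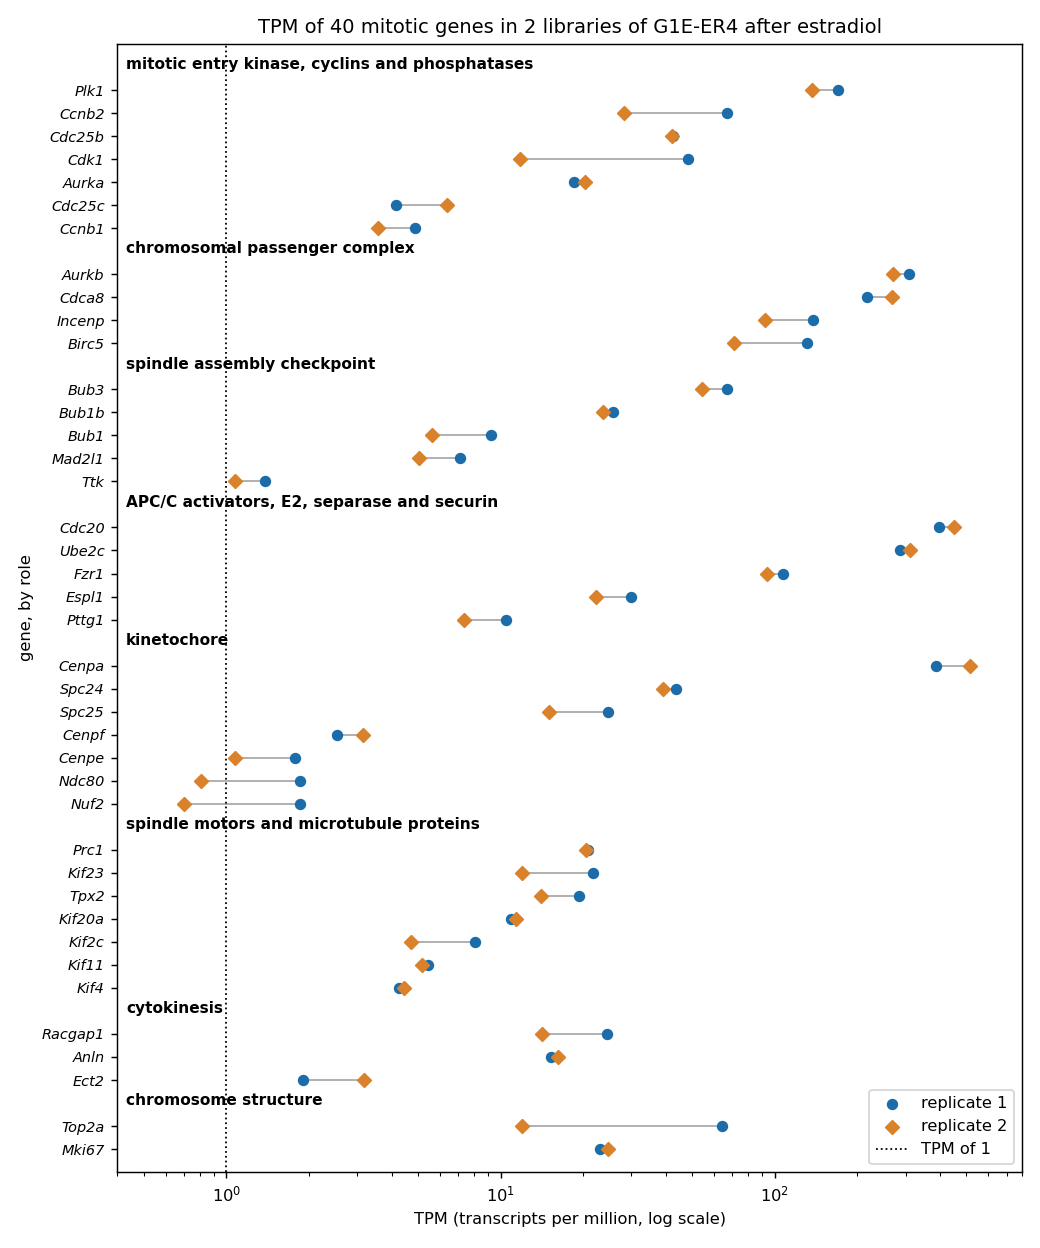
TPM (log axis) of each of the 40 genes in replicate 1 (circles) and replicate 2 (diamonds), grouped by role, with a line joining the pair. Cenpa, Cdc20, Ube2c and Aurkb stand highest, and Ttk, Nuf2, Ndc80 and Cenpe lowest, near the dotted line at a TPM of 1.

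Among the genes of mitotic entry, by gene totals, the kinase gene Plk1 had the highest mean and the cyclin gene Ccnb1 the lowest. In replicate 1, however, Cdc25c was below Ccnb1. Plk1, which promotes entry and later steps, had a TPM of 170 in replicate 1 and 137 in replicate 2 (153 ± 23.4, SD, n = 2). Ccnb2 had 66.8 and 28.1 and Ccnb1 4.88 and 3.56, so Ccnb2 exceeded Ccnb1 by 13.7 and 7.90 times, although both encode partners of Cdk1. In expected counts, which are not corrected for transcript length, the ratio was 8.26 and 4.97. The copy Ccnb1-ps, a processed pseudogene that may share reads with Ccnb1, held 4.31 and 2.66 expected counts beside 568 and 279 for the gene. Cdk1 itself had 48.1 and 11.8, a mean of 29.9, and 2.51 scaled counts per kilobase of its longest coding transcript. Protein-coding transcripts held 7.52% and 32.8% of that TPM, with 2.51 and 3.66 in Cdk1-202 and 1.11 and 0.20 in Cdk1-201. Of the phosphatases that activate Cdk1, Cdc25b had 42.5 and 42.3, nearly level in the libraries, and Cdc25c 4.15 and 6.35, with replicate 2 the higher. Aurka, the Aurora kinase of centrosomes and spindle poles, had 18.5 and 20.3.

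The chromosomal passenger complex, which corrects faulty attachments and later works at the cleavage furrow, was abundant in all 4 subunits. Aurkb, its kinase, had a TPM of 309 and 269 (289 ± 28.3, SD, n = 2). It stood 16.7 and 13.3 times above Aurka, the Aurora kinase of the spindle poles. Cdca8 (borealin) had 217 and 267, and Incenp, the scaffold, 138 and 92.0. Birc5 (survivin), which helps to place the complex on chromatin, was the lowest at 131 and 71.0, a mean of 101, and had 22.1 scaled counts per kilobase of its longest coding transcript. The highest subunit exceeded the lowest by 2.35 and 3.79 times, a narrower range than in the Ndc80 and mitotic checkpoint complexes. This order is of gene totals. Protein-coding transcripts held 22.5% and 24.9% of Aurkb TPM, 40.9% and 30.4% of Cdca8 TPM, and all of the TPM of Incenp and Birc5. The coding Aurkb-201 (67.8 and 65.7) and Aurkb-202 (1.81 and 1.31) together stood below Birc5 in both libraries.

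Checkpoint genes were lower and more unequal. All 5 had the higher TPM in replicate 1, as had 55.5% of detected protein-coding genes. By scaled counts Bub1b (adjusted p = 0.61, exact binomial test) and Ttk (adjusted p = 0.86) did not differ past the threshold between the libraries. With a GC trend removed, the log2 ratios of Bub1b, Mad2l1 and Ttk were 0.06, 0.13 and 0.19, on the side of replicate 2. Bub3, which brings Bub1 and Bub1b to kinetochores, had 67.0 and 54.2, and Bub1b (BubR1), an inhibitor of the APC/C, 25.7 and 23.6. Bub1, a kinase that builds the checkpoint at kinetochores, had 9.24 and 5.61. Mad2l1, which binds Cdc20 when the checkpoint is active, had 7.12 and 5.04. Ttk (Mps1), the kinase at the head of the pathway, had the lowest mean of the 40 genes, at 1.38 and 1.07. In the mitotic checkpoint complex, made of Bub1b, Bub3, Mad2l1 and Cdc20, the highest member, Cdc20, stood 55.8 and 89.6 times above the lowest, Mad2l1.

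Genes that end mitosis included some of the most abundant of the list. Cdc20, the APC/C activator of metaphase, had a TPM of 397 and 452 (425 ± 38.5, SD, n = 2), and Ube2c, the E2 enzyme that works with the APC/C, 286 and 310. Both were higher in replicate 2. Fzr1 (Cdh1), the activator of late mitosis and G1, had 107 and 93.4, so Cdc20 stood 3.70 and 4.84 times above it, and 2.13 and 3.18 times in counts. Separase, Espl1, had 29.9 and 22.2, and securin, Pttg1, which holds separase inactive, 10.5 and 7.36. Separase thus exceeded its inhibitor at the RNA level, by 2.85 and 3.02 times per length and by 44.0 and 35.6 times in counts, which were 223 and 143 for Pttg1.

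Kinetochore genes spanned nearly the whole range. Cenpa, the histone H3 variant that marks centromeres, had the highest mean TPM of all 40, 452 ± 90.7 (SD, n = 2), with 387 in replicate 1 and 516 in replicate 2. Cdc20 was above it in replicate 1 (397). Protein-coding transcripts held 38.9% and 40.4% of Cenpa TPM, and 99.987% and 100% of that of Cdc20. The Ndc80 complex, which grips microtubules with equal numbers of 4 subunits, was split into a high and a low pair. Spc24 had 43.7 and 39.0 and Spc25 24.6 and 15.01, whereas Ndc80 and Nuf2, which bind the microtubule, stayed below 2. The highest subunit exceeded the lowest by 23.5 and 55.8 times, and by 14.7 and 33.2 times in counts. Cenpe, a kinesin that moves chromosomes to the spindle middle, had 1.78 and 1.07, and Cenpf, a large protein of the outer kinetochore, 2.53 and 3.14.

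Spindle genes were intermediate, between a mean TPM of 4.34 and 20.7. Prc1, which bundles the microtubules of the spindle midzone, had 20.9 and 20.6, and Tpx2, which activates Aurka and nucleates microtubules, 19.3 and 14.0. Of the kinesins, Kif23 of the midzone had 21.6 and 12.0, Kif20a of the midzone 10.9 and 11.4, and Kif2c, which takes microtubules apart, 8.07 and 4.72. Kif11, which pushes the spindle poles apart, had 5.45 and 5.18, and Kif4, the chromosome-bound kinesin on chromosome X, 4.25 and 4.43. The copies Kif4-ps and Ccnb2-ps had 0 counts. Racgap1, which joins Kif23 in centralspindlin, had 24.5 and 14.2, or 1.13 and 1.19 times Kif23 per length. In counts the order was the reverse, at 0.492 and 0.592 times. Among the cytokinesis genes Anln, a scaffold of the contractile ring, had 15.2 and 16.2, and Ect2, the exchange factor that activates RhoA there, 1.90 and 3.18. These are gene totals, and protein-coding transcripts held only 24.6% and 2.22% of Ect2 TPM. Top2a, which untangles sister chromatids, had 64.3 and 12.0, the widest TPM ratio of the list, while Mki67, the proliferation marker that coats mitotic chromosomes, had 23.1 and 24.7.

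Genes of higher GC content had higher levels, given here as a description of the 40. Spearman's rho between mean TPM and GC (median over the annotated coding transcripts of a gene) was 0.762 across the 40 genes, 0.737 in replicate 1 and 0.783 in replicate 2, and 0.324 across 8206 detected protein-coding genes. The points share libraries, and GC and transcript length were themselves related (rho of -0.312 in the 40 genes). The 13 genes under 45% GC had a median TPM of 4.22 and the 16 genes at 50% or more had one of 80.5, where the same classes of detected protein-coding genes had 9.35 and 32.0. Of the 40 genes 32.5% were under 45% GC, against 15.8% of detected protein-coding genes. The Ndc80 complex showed this order in part: Spc24, the highest, had a GC of 54.7%, and Ndc80 and Nuf2, the lowest, 44.1% and 42.5%, but Spc25 had 42.0%. With transcript length, TPM had a rho of -0.342 in the 40 genes and -0.201 in detected protein-coding genes. Whether base composition has a part in the measured levels was not tested.

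**Figure D2:**
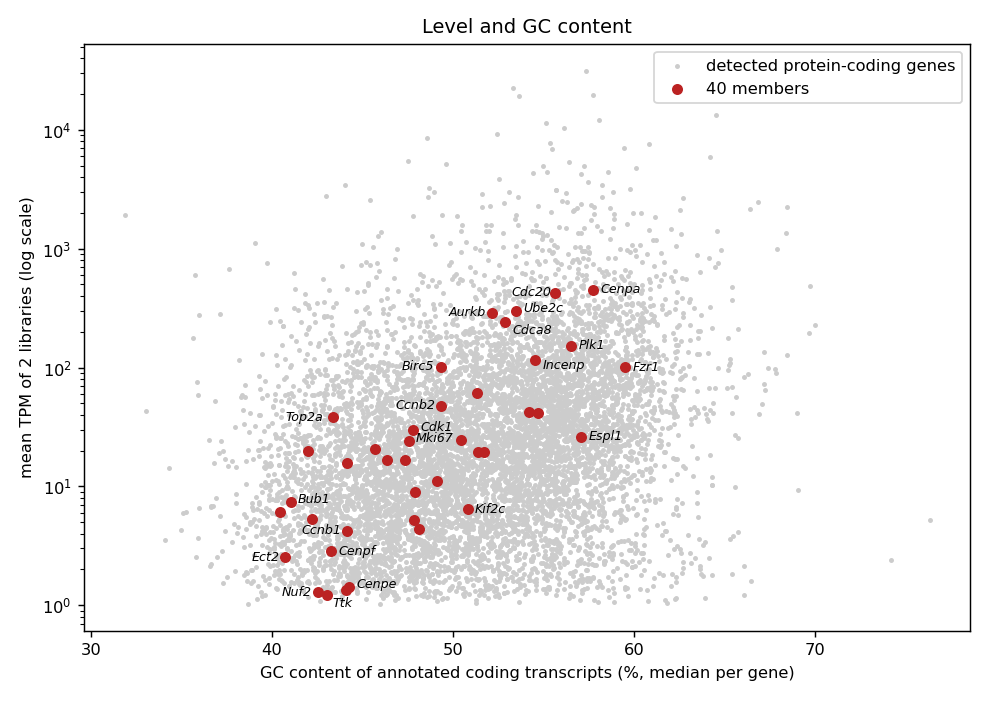
Mean TPM of the 2 libraries (log axis) against GC content of the annotated coding transcripts in percent, for the 40 members (red) and all detected protein-coding genes (grey). The members climb from Nuf2, Ttk and Cenpe near a TPM of 1 below 45% GC to Cenpa and Cdc20 above 400 beyond 55% GC.

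The libraries were then compared gene by gene. Expected counts were scaled by edgeR's TMM library sizes, and a gene was called different at a fold of at least 2 and an adjusted p under 0.05 by an exact two-sided binomial test with Benjamini-Hochberg adjustment over 11285 genes. The test takes counting noise as its sole error and compares these libraries, not conditions. Of the 40 genes, 6 were called lower in replicate 2 (15%) and none higher, where 8.36% of all tested genes were called lower and 2.68% higher, 11.0% in all. Among tested protein-coding genes 7.72% were called lower and 2.07% higher, 9.79% in all. By the adjusted p alone, 21 of the 40 were lower and 13 higher, and 67.6% of all tested genes passed in either direction, 34.5% as lower. Scaled counts were lower in replicate 2 in 25 of the 40, and in 51.6% of all tested and 51.4% of tested protein-coding genes. For the scaled counts, the log2 ratio of replicate 2 over replicate 1 had a median of -0.20 in the 40 genes, -0.02 in all tested genes and -0.02 in tested protein-coding genes. Within 1.5 times between libraries were 28 of the 40 by counts, and 66.8% of all tested genes. By TPM they were 25 of the 40, and 70.7% of detected protein-coding genes.

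Bub1 had 1411 expected counts in replicate 1 and 294 in replicate 2, a log2 ratio of -1.64 (adjusted p = 7.13e-86, exact binomial test). Cdk1 had 1013 and 255, a log2 ratio of -1.36 (adjusted p = 8.65e-48, exact binomial test), and Nuf2 180 and 50, one of -1.22 (adjusted p = 4.97e-08). These are a checkpoint kinase, the master kinase of mitosis and a microtubule-binding kinetochore subunit. Top2a had 5383 and 1580 counts (-1.14), Ccnb2 4688 and 1389 (-1.13) and Ndc80 193 and 59 (-1.08), with adjusted p of 4.11e-190, 1.25e-162 and 2.94e-07 by the same exact binomial test. These calls are of gene totals, over coding and noncoding transcripts, and coding transcripts were not tested alone. Coding transcripts held 28.9% of Cdk1 counts in replicate 1 and 63.8% in replicate 2, and 78.0% and 94.2% of Top2a counts. Before scaling, the coding Cdk1-202 had 140 and 144 counts, Cdk1-201 153 and 19.1, and Top2a-201 4199.5 and 1488.7. The Cdk1 and Top2a calls thus rest in part on noncoding transcripts. Coding transcripts held 98.6% and 80.9% of counts in Bub1, and 99.4% or more in Nuf2, Ccnb2 and Ndc80. All 6 called genes had a GC content under 50%, from 41.0% in Bub1 to 49.3% in Ccnb2. Across the 40 genes the log2 ratio and GC had a Spearman rho of 0.30, and across detected protein-coding genes 0.216. A smooth GC trend was fitted over the tested genes with a GC value, 89.7% of all tested. With it removed, the median of the 40 went from -0.20 to -0.08, and 3 of the 6 calls were lost. Bub1 (-1.28), Cdk1 (-1.26) and Ccnb2 (-1.04) stayed past the 2-fold limit, and Nuf2 (-0.94), Top2a (-0.91) and Ndc80 (-0.88) did not. By that rule 5.64% of the tested genes with a GC value were called lower and 2.89% higher. By TPM rather than counts, only Cdk1, Ccnb2 and Top2a of the 40 passed the 2-fold limit with a pseudocount of 1, a rule by which 7.12% of all tested genes were called. At the upper end, Cdc25c (375 and 403 counts) had the highest log2 ratio, 0.73, and Cenpa the next, 0.48, and neither reached a fold of 2.

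**Figure D3:**
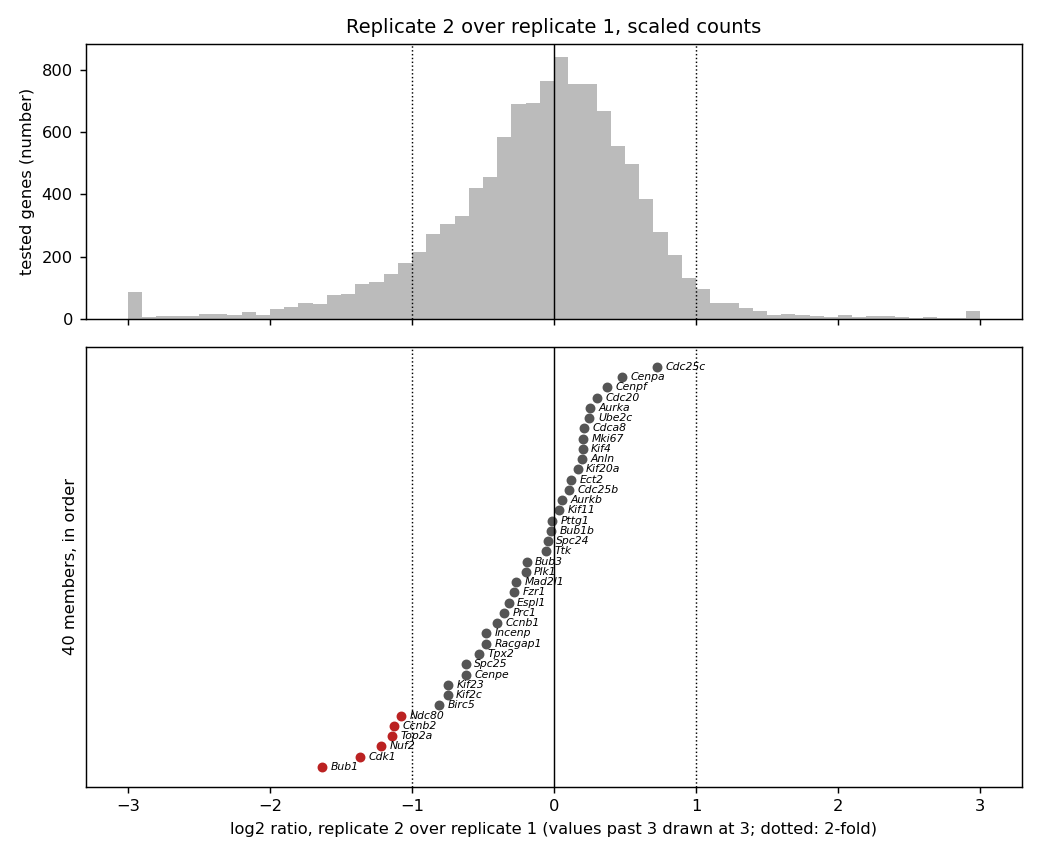
Top, number of tested genes by log2 ratio of scaled counts, replicate 2 over replicate 1. Below, the 40 members in order, with those called different in red and dotted lines at a fold of 2. The members reach from -1.64 (Bub1) to 0.73 (Cdc25c), and the 6 called lie on the side of replicate 1.

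Levels per length depended on which transcripts the authors' tables chose. The 40 genes had 188 transcripts in the tables, and 27 genes had 2 or more. In 8 of these 27 the leading transcript, that of highest mean TPM, held at least 90% of the gene's TPM in both libraries, as in Cdc20-201 (99.987% and 100%) and Ube2c-202 (99.8% and 99.6%). In 6 genes the transcript of highest TPM was not the same in the libraries: Aurkb, Bub1, Ttk, Prc1, Ect2 and Top2a. Among detected protein-coding genes with 2 or more transcripts this was so in 16.6%. Top2a had the widest shift. Its short noncoding transcript Top2a-202, 632 bases long, held 71.9% of Top2a TPM in replicate 1 and 0% in replicate 2, but 20.7% of expected counts in replicate 1. The coding Top2a-201, of 5221 bases, had a TPM of 16.4 and 8.30, so the gap of Top2a in gene TPM (64.3 and 12.0) was wider than that of its coding transcript.

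Short noncoding transcripts led other genes too. The retained-intron transcript Cdk1-204, of 475 bases, held 92.4% and 67.2% of Cdk1 TPM, and 71.0% and 36.2% of its counts. Of the coding transcripts, Cdk1-202 had a TPM of 2.51 and 3.66, and 140 and 144 counts, while Cdk1-201 had a TPM of 1.11 and 0.20, and 153 and 19.1 counts, so they moved in opposite directions. For Aurkb, Aurkb-204, a noncoding transcript of 615 bases, held 66.1% of TPM in replicate 1 and 21.05% in replicate 2. The coding Aurkb-201 was level, at a TPM of 67.8 and 65.7. Cdca8-203, also noncoding, held 59.0% and 69.6% of Cdca8, and Cenpa-202, annotated for nonsense-mediated decay, 48.4% and 47.4% of Cenpa. In 9 of the 40 genes, protein-coding transcripts held under 50% of TPM in at least 1 library. The coding transcripts of Aurkb held 22.5% and 24.9%, so its lead over Aurka, whose coding transcripts held 99.2% and 100%, was smaller among coding transcripts. All of Aurka had a TPM of 18.5 and 20.3, beside 67.8 and 65.7 for Aurkb-201. In counts of gene totals, noncoding transcripts included, Aurkb exceeded Aurka by 7.38 and 6.45 times.

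Other shifts between the libraries concerned transcripts of different fate. Bub1-201, coding, held 90.9% of Bub1 TPM in replicate 1 and 36.5% in replicate 2, where the retained-intron Bub1-203 of 586 bases held 62.7%. By counts Bub1-201 held 98.6% and 80.9%. Ttk-204, with a retained intron, had 0 counts in replicate 1 and 50.6 in replicate 2, where it passed Ttk-201. In Prc1 the coding transcript Prc1-203 held 40.5% and 35.9% of TPM and Prc1-209, also coding, 24.9% and 47.6%. In Ect2 the decay transcript Ect2-212 held 38.2% and 19.6% and the retained-intron Ect2-201 21.5% and 32.3%. Fzr1-201, a decay transcript, held 0.289% and 34.6% of Fzr1 TPM, and the retained-intron Pttg1-208 held 40.4% and 0%. These splits are estimates from reads that transcripts share, and each rests on 1 library a side.

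**Figure D4:**
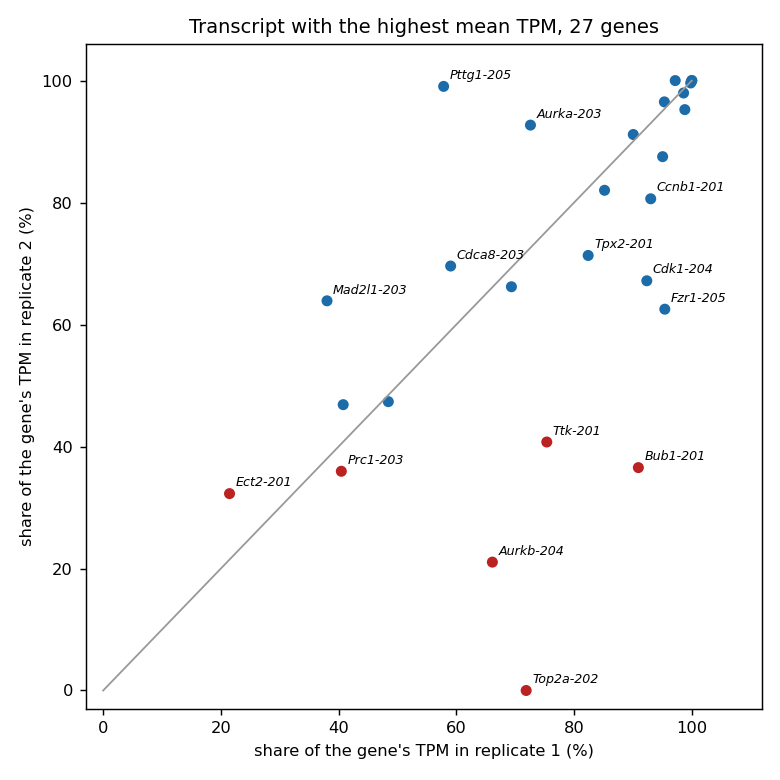
Share of a gene's TPM held by its transcript of highest mean TPM, in replicate 1 and replicate 2 (percent), for the 27 members with 2 or more transcripts; red marks genes whose top transcript differed between the libraries. Top2a-202 falls from 71.9% to 0% and Bub1-201 from 90.9% to 36.5%, off the line of equal shares.

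Other genes of mitosis were read from 6 further lists, which hold 129 genes and none of the 40. Of these 129, 116 were detected, with a median TPM of 14.9. Called lower in replicate 2 were 22 (17.1%) and higher none, beside 8.36% and 2.68% of all tested genes. The median log2 ratio was -0.20, and -0.10 with the GC trend removed. Over the 40 and the 129 together, 28 of 169 genes were called lower (16.6%) and 0 higher. By the adjusted p alone 92 of the 169 were lower and 43 higher. Of all tested genes 34.5% were lower by that measure, and 67.6% passed in either direction. With the GC trend removed, 16 of the 28 fell inside the 2-fold limit and 12 stayed lower, while Knl1 and Lin9 passed it as higher. The 12 are of 169 genes, where 5.64% of the tested genes with a GC value were called lower by that rule and 2.89% higher. Of the 22, Sgo1, Spdl1, Anapc10, Mad2l1bp, Fbxo5, Cks2, Pbk, Stmn1 and Rbbp4 stayed past the limit, and the other 13 did not.

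All 20 condensin and cohesin genes were detected; the list had median values of 10.0 in TPM and -0.23 in log2 ratio. The condensin subunits Ncapd2 (251 and 217), Smc4 (115 and 141) and Ncaph2 (77.5 and 77.1) led them in TPM. Called lower in replicate 2 were 4 (20%), beside 8.36% of all tested genes. They were the cohesin protector Sgo1 (a TPM of 51.2 and 15.95, log2 ratio of counts -1.39), the cohesin subunit Stag2 (-1.14), the cohesin acetyltransferase Esco2 (-1.11) and the condensin subunit Smc2 (-1.04). Of 30 further kinetochore genes 25 were detected; the list had median values of 5.25 in TPM and -0.35 in log2 ratio. Pmf1 of the Mis12 complex (248 and 254), Cenpm (109 and 73.5) and Cenpw (94.7 and 56.5) of the inner kinetochore led them. Of the 30, 7 were called lower (23.3%), with the largest log2 ratios in Cenpk (27 and 6 counts, -1.48), Spdl1 (219 and 54, -1.39), Ska2 (-1.14), Oip5 (-1.12) and Zwilch (-1.03).

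Of 19 genes of the APC/C and its regulators 18 were detected; the list had median values of 24.5 in TPM and -0.10 in log2 ratio. The E2 enzyme Ube2s, which extends ubiquitin chains, led at 850 and 1070, above every one of the 40, and the subunits Anapc11 (273 and 138) and Anapc1 (109 and 97.2) followed. Of the 19, 4 were called lower (21.1%), beside 8.36% of all tested genes. They were Anapc10 (39 and 3 counts, log2 ratio -2.92), Mad2l1bp (-1.63), the APC/C inhibitor Fbxo5 (a TPM of 13.3 and 4.46, -1.46) and Anapc13 (-1.05). Of 18 genes that control entry and exit 15 were detected; the list had median values of 44.5 in TPM and -0.03 in log2 ratio. Ccna2, the cyclin of S and G2 phases, had a TPM of 537 and 627, above both B-type cyclins, the phosphatase subunit Ppp1cc 145 and 220, and Cks2, a small partner of Cdk1, 174 and 46.7. Cks2 (-1.76), the kinase Pbk (-1.48) and Bora (-1.05), which helps Aurka to activate Plk1, were called lower, 16.7% of the list.

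Of 28 spindle, centrosome and cytokinesis genes 26 were detected; the list had median values of 27.02 in TPM and -0.32 in log2 ratio. The small GTPase Rhoa (144 and 103), the kinesin Kifc1 (99.95 and 84.5) and the pole protein Numa1 (85.04 and 82.6) led them. Stmn1, which destabilises microtubules (4843.5 and 662 counts, -2.25), and the kinesin Kif20b (-1.29) were called lower. They made up 7.14% of the list, beside 8.36% of all tested genes. Of 14 transcription factors and cofactors of G2 and M genes 12 were detected; the list had median values of 37.5 in TPM and -0.06 in log2 ratio. Lin37 of the DREAM complex led them at 128 and 98.1, with Mybl2 at 94.8 and 69.2 and E2f4 at 65.9 and 70.2. Rbbp4 (-1.11) and the NF-Y subunit Nfyc (-1.01) were called lower, 14.3% of the list.

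**Figure D5:**
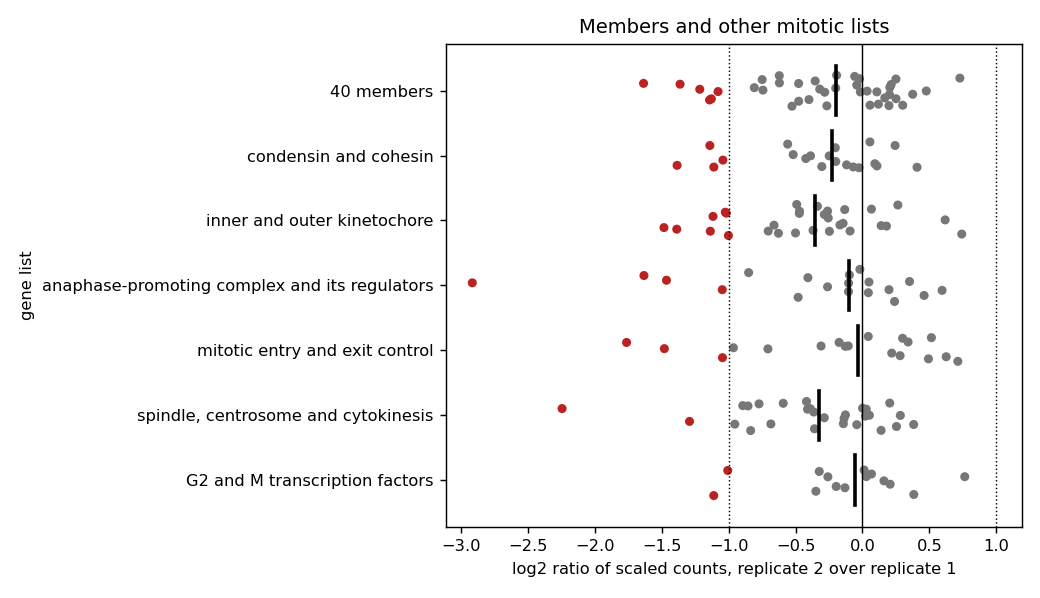
Log2 ratio of scaled counts, replicate 2 over replicate 1, of each gene in the 40 members and 6 other mitotic lists, with black bars at the medians, red for genes called different and dotted lines at a fold of 2. Red points lie on the left only, and the medians run from -0.35 in the kinetochore list to -0.03 in the list of entry and exit control.

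Relatives of the 40 with duties outside somatic mitosis were detected in part. Of 21 paralogs 11 were detected and 9 had 0 counts in both libraries, among them Aurkc and Ccnb3, which are known from germ cells, and Cdc20b. The highest were Xiap, a relative of Birc5 (62.3 and 69.9), Top2b (43.6 and 60.7) and Mad2l2 (38.2 and 29.8). None of the 11 tested was called different, where 11.0% of all tested genes were. Of 12 meiosis genes, Rec8, the meiotic cohesin subunit, was detected, at a TPM of 51.2 and 42.9, and 10 had 0 counts in both libraries. The 40 genes lay on 16 chromosomes. Chromosome 2 held 7 of them (17.5%), Aurka, Bub1, Bub1b, Cdc25b, Spc25, Tpx2 and Ube2c, where it holds 8.38% of protein-coding genes. Of the 40, 7 overlapped an expressed gene on the opposite strand, the longest overlap being that of Prc1 with Rccd1 (a TPM of 19.7 and 17.2). Whether the counting used the strand is not given in the sources used here, so reads of Prc1 and Rccd1, and of Kif20a and Cdc23, may not be fully separated.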

How the data were processed

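PolyA RNA of G1E-ER4 cells was profiled in 2 libraries of 1 group. Per the notes deposited with the files, genes and transcripts were quantified from transcriptome alignments on mm10 with GENCODE M4. The aligner, quantifier and strand setting are not given in the sources used here. Expected counts, and posterior mean counts, were deposited as unnormalized estimates and were rounded here to whole numbers. The deposited TPM values (and posterior mean TPM) are per-length abundances with equal library totals. The deposited bounds of the TPM interval are the authors', with no stated level. Names, positions and GC came from GENCODE M21 on GRCm38, the same assembly as mm10; 42462 of 43346 gene identifiers matched, and the others held 0.248% and 0.257% of counts.

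Library sizes were scaled with edgeR 4.0.16 (TMM) in R 4.3.3. Genes with at least 10 counts over both libraries were compared by a two-sided exact binomial test (the smaller tail doubled), with a prior count of 0.5 for ratios. The procedure was tested on simulated data. Counting error for the smallest count, 50, spanned 37.1 to 65.9 (95% exact Poisson interval, counting error alone). All 40 genes were named; full values were given for the highest, the lowest, those called different, those with a changed leading transcript, complex subunits and pairs, and of other lists the 3 highest and up to 5 called. The members and lists were chosen with earlier results of these data known. A planned search of protein sequences was not run. Alternatives covered scaling (DESeq2 1.42.0 size factors, total counts), filters, thresholds, estimates, GC and the omission of each library.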

Additional observations from a re-analysis of the deposited data

How the results depend on the processing

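The 38 genes detected became 38 to 40 when each library was left out in turn, and the median TPM of 19.6 became 14.6 to 22.4. Leaving out a library ends the comparison between them, so the called genes have no such value. No paired analysis was possible because there is only 1 group. The 6 genes called different were the same 6 with DESeq2 size factors, no filter on low counts or posterior mean counts. Of all genes tested, these settings called 10.9%, 2.66% and 10.9%. By total counts they were 7, which added Birc5, where 14.0% of all tested genes were called. At a fold of 1.5 they were 12 (27.5% of all tested genes), with Cdc25c as the one higher in replicate 2. By the fold of TPM they were 3 (Cdk1, Ccnb2 and Top2a), beside 7.12% of all tested genes. With the GC trend removed they were 3 (Bub1, Cdk1 and Ccnb2), beside 8.53% of tested genes with a GC value. The last 2 alternatives were both chosen after seeing the data. The median log2 ratio of -0.20 became -0.41 by total counts, where all tested genes had -0.23, and -0.076 with the GC trend removed. Ratios between genes were also taken in expected counts, which are not corrected for transcript length. Their means were 6.62 for Ccnb2 over Ccnb1 (10.8 by TPM), 6.92 for Aurkb over Aurka (15.01) and 13.4 for Cdc25b over Cdc25c (8.46). They were 2.65 for Cdc20 over Fzr1 (4.27), 39.8 for Espl1 over Pttg1 (2.94) and 6.50 for Bub1b over Bub1 (3.49). The leading transcripts of Espl1 and Pttg1 are 6658 and 696 bases long. Racgap1 over Kif23 turned from 1.16 to 0.542. By posterior mean TPM, Espl1 over Pttg1 was 2.79 and Racgap1 over Kif23 1.22. Of the 40 mean TPM values, 39 moved by less than their SD under posterior means and 10 under counts per kilobase of the longest coding transcript, the latter chosen after seeing the data. By that measure the widest moves were those of Cdk1 (29.9 to 2.51), Mad2l1 (6.08 to 0.873), Birc5 (101 to 22.1) and Pttg1 (8.92 to 2.07). Of 27 leading transcript shares, 13 moved by no more than their SD by counts and 18 by posterior means. Nuf2 and Ndc80 rest on 50 and 59 counts in replicate 2, and the spread of 2 libraries limits every other value.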
